A study of Arabidopsis thaliana with 6 samples.

Results

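The 150 genes described here were those whose transcript level varied most among 3 wild-type (WT) arrays of Arabidopsis thaliana seedlings. They were chosen by a rule on the measured values: the SD of log2 intensity over the WT arrays, taken among 6737 eligible genes. A gene was eligible when its brightest probe set had a WT mean log2 intensity of at least 5 and when it lay outside the 200 genes with the highest WT mean. The eligible genes came from 16542 genes that the probe table named on a probe set of their own. Since the WT values chose the genes, every WT value below is a description without a test. The spread of the ara6-1 arrays was not used. They entered the choice only through the brightest probe set of a gene, taken by the mean over 6 arrays, and through the rule on decimals. With the probe set of highest WT mean instead, 149 of the 150 genes were the same.

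The Affymetrix arrays were hybridized with total RNA of whole 14-day-old plants. There were 3 biological replicates of WT in the Columbia accession and 3 of ara6-1, a knock-out line of ARA6, which encodes a plant-specific RAB5 GTPase of endosomal membrane traffic. After 1 day in the cold (4 °C), all plants grew under continuous light on MS plates kept at 23 °C. The labels describe 1 mutant line, do not say how the replicates were raised apart, and name no batch, so the spread between replicates may be biological or technical.

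Among the 28501 probe sets analysed, array medians ran from 28.8 to 29.2 in linear intensity. Within each group 1 array stood apart. Over probe sets above the median intensity, deviations from the group mean had an SD of 0.169 (log2) in WT replicate 3 and 0.165 in ara6-1 replicate 1, against 0.120 to 0.126 in the other 4 arrays. ARA6, the gene disrupted in the mutant, stood at 7.99, 8.40 and 8.34 (log2) in WT and at 6.98, 7.15 and 6.89 in ara6-1, replicates in order. Having 3 arrays a group limited the precision of every value. In whole plants, a change in the share of a tissue cannot be told apart from a change of RNA per cell.

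Transcripts that differ between plants grown alike are often those of responses to touch, wounding, pathogens, light and sugar, and those of growing tissues. Defensins and pigment enzymes rise under stress, whereas mitotic kinases and expansins mark dividing and expanding cells. Roots and shoots use largely different sets of secreted peroxidases and glucosidases, so such genes also follow how much root a sample holds.

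The spread among WT plants was mostly the work of 1 array. WT replicate 3 was the array farthest from the WT mean in 123 of the 150 genes (82%). The same array was farthest in 45.0% of all eligible genes. It was low in 71 of the 123 genes and high in 52. WT replicate 2 was farthest in 17 genes, 9 high and 8 low, and WT replicate 1 in 10 genes, 3 high and 7 low. The rule used these WT values, so nothing is read from these shares beyond which array drove which gene.

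The deviations were sharp. The farthest array differed from the mean of the other two by 0.61 to 2.97 on the log2 scale, with a median of 0.81, and by at least 2-fold in 26 genes. In 135 genes the other two WT arrays lay closer to each other than 50% of that difference. Their median gap was 0.17. The WT SD of the 150 genes ran from 0.39 to 1.75 with a median of 0.48, against a median of 0.11 in all eligible genes. At the border, psbT, AT2G15880 and AT4G21910 were the last inside with WT SDs of 0.396, 0.395 and 0.395, and AT5G56120, AT1G31690 and AT3G21680 were the first outside with 0.395, 0.394 and 0.392.

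**Figure D1:**
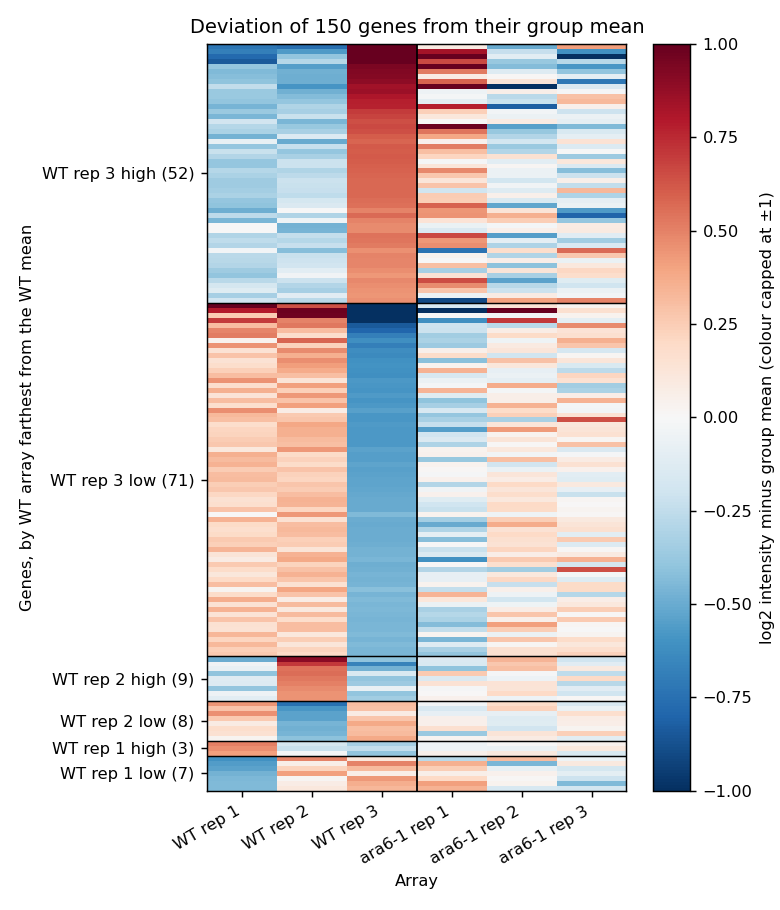
Log2 intensity minus the mean of its own group for 150 genes (rows) on 6 arrays (columns), grouped by the WT array farthest from the WT mean and whether it was high or low. WT replicate 3 carried the deviation in 123 rows, and the column of ara6-1 replicate 1 showed a paler copy of it in many, but not all, of them.

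Among transcripts low in WT replicate 3, the most variable gene of all was AT5G44540, for which the tables used here give no name beyond the locus. On the log2 intensity scale, with replicates always in the order 1 to 3, it stood at 6.55, 5.85 and 3.23 in WT and at 2.85, 3.14 and 3.04 in ara6-1. WT replicate 3 thus lay close to the mutant, and the 2 other WT arrays lay far above all 4. AT2G20870 followed, with 7.42, 7.61 and 4.86 in WT and 5.59, 7.86 and 6.96 in ara6-1. Here the low values were those of WT replicate 3 and ara6-1 replicate 1, and the groups overlapped widely.

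AT5G22430 had its lowest values on the same arrays, with 5.74, 5.54 and 3.84 in WT and 4.14, 5.46 and 4.66 in ara6-1. AT1G58320 stood at 5.40, 5.62 and 4.25 in WT and at 4.31, 4.24 and 4.99 in ara6-1, so that 2 mutant arrays were as low as WT replicate 3. ARR15, which encodes a type-A response regulator, an early target and a brake of cytokinin signalling, stood at 5.998, 6.72 and 4.52 in WT. In ara6-1 its values were 5.37, 5.34 and 5.41. The mutant arrays were level with one another, between the low WT array and the other two. The 1 other eligible gene of the response regulator list, RR16, had a WT SD of 0.07.

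Genes of dividing and expanding cells were found among those low in WT replicate 3. The Aurora kinase gene AUR2, of a family that acts in mitosis, stood at 6.65, 6.47 and 5.37 in WT and at 6.01, 6.30 and 6.36 in ara6-1. Its relative AUR1 stood at 7.09, 7.31 and 6.49 in WT and at 7.14, 7.36 and 7.38 in ara6-1. In both genes WT replicate 3 was the lowest of the 6 arrays, and ara6-1 replicate 1 was the lowest of the mutant arrays by 0.32 and 0.23 against the mean of the other two. The beta-tubulin gene TUB1 had 5.40, 5.64 and 4.66 in WT and 4.99, 5.66 and 5.30 in ara6-1. These 3 genes belong to no list used here and were picked after their values were seen, since they are among the few members with a gene name.

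The expansins loosen the cell wall during growth. EXPA8 stood at 8.86, 8.89 and 8.09 in WT and at 8.35, 8.84 and 8.74 in ara6-1. EXPB1 stood at 6.40, 6.43 and 5.72 in WT and at 6.36, 7.09 and 6.997 in ara6-1. In both, the low arrays of each group were WT replicate 3 and ara6-1 replicate 1. Of the 12 eligible genes of the list of expansins and other wall proteins, 2 were among the 150. WT replicate 3 lay below the mean of the other two in 7 of the 12, with a median difference of -0.16, and ara6-1 replicate 1 in 7, with a median of -0.15. Over all eligible genes these medians were -0.000436 and 0.00289, and the 2 arrays were lower in 3374 and 3330 of 6737. In the list, EXGT-A3 and EXPA25, both outside the 150, were higher in WT replicate 3, by 0.56 and 0.46. The list was matched by symbol and also took PRP39, a splicing factor gene.

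In other named transcripts low in WT replicate 3, ara6-1 replicate 1 was nearly level with its group or deviated the opposite way. The metallothionein gene MT1C had 8.52, 8.41 and 7.67 in WT and 8.07, 8.11 and 7.91 in ara6-1. The defensin gene PDF2.5 had 7.28, 7.20 and 6.44 in WT and 6.85, 6.98 and 6.76 in ara6-1. The SKU5-like genes sks15 and sks16, of a family of multicopper oxidase-like wall proteins, had 0.01 and 0.06 for ara6-1 replicate 1 minus the mean of replicates 2 and 3. LSM3A, a gene of the Sm-like RNA-binding family, had 0.27, and NRPB6B, an RNA polymerase subunit gene, had 0.51, both opposite to the WT array. Their WT replicate 3 differences were -0.73, -0.81, -0.95 and -0.70 in the order named.

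ATC and psbT were low in both WT replicate 3 and ara6-1 replicate 1. ATC, a relative of the flowering repressor TFL1, had 5.53, 5.85 and 4.78 in WT and 5.53, 6.25 and 6.07 in ara6-1. The plastid gene psbT, which encodes a small subunit of photosystem II, had 9.74, 9.68 and 9.03 in WT and 9.17, 9.72 and 9.79 in ara6-1. Of the 14 transcripts with a gene name that were low in WT replicate 3, ara6-1 replicate 1 deviated in the same direction in 9, and by at least 0.5 in 3, namely EXPB1, ATC and psbT. The value of 0.5 on the log2 scale, a 1.41-fold difference, serves below as the mark of a shared deviation.

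Among transcripts high in WT replicate 3, AT4G22485 came first. It stood at 5.45, 5.42 and 7.65 in WT and at 7.46, 6.88 and 7.80 in ara6-1, so WT replicate 3 lay inside the mutant range and the other two WT arrays below it. AT5G19110 stood at 6.26, 6.38 and 8.19 in WT and at 7.60, 6.53 and 6.16 in ara6-1. AT2G38240 stood at 5.07, 5.45 and 7.02 in WT and at 5.75, 4.55 and 3.66 in ara6-1. In these 2 genes the high arrays were WT replicate 3 and ara6-1 replicate 1.

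The next members repeated that pairing of arrays. AT3G20395 had 4.50, 5.05 and 6.46 in WT and 5.75, 4.71 and 4.81 in ara6-1. AT3G44970 had 5.11, 4.94 and 6.44 in WT and 6.65, 5.21 and 5.06 in ara6-1, where the 2 high arrays were about as high as each other. AT1G52120, given here in linear intensity, had 30.4, 28.5 and 58.7 in WT and 85.5, 29.8 and 32 in ara6-1, with ara6-1 replicate 1 the highest of the 6 arrays.

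Genes of the stress and defence lists went both ways in WT replicate 3. Of the 10 eligible genes of the defence peptide list 7 were lower there than the mean of the other two, with a list median of -0.30. So were 3 of 3 genes of the heat shock and chaperone list and 4 of 6 of the cold and drought list, beside 50.1% of all eligible genes. Genes of other function were counted as well, PDF1A among the 7 and BRK1 among the 3. These lists were matched by symbol pattern or locus and held few eligible genes, so nothing is read from the counts. PDF1.2, a plant defensin gene switched on by jasmonate and ethylene, had 5.42, 5.07 and 6.501 in WT and 7.59, 4.24 and 5.70 in ara6-1. Its difference in ara6-1 replicate 1 against the mean of replicates 2 and 3 was 2.62, the largest shared deviation of the 150 genes. Its SD was 0.75 over the WT arrays and 1.68 over the ara6-1 arrays. PDF1.2b, a close copy outside the 150 genes with a WT SD of 0.37, had 2.64 for the same mutant difference. Whether the probe sets tell these copies apart was not tested.

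STZ, the gene of a zinc finger repressor induced by salt, cold and wounding, did not share the pattern. It stood at 5.45, 5.38 and 6.62 in WT and at 6.16, 5.90 and 6.47 in ara6-1, where replicate 1 lay between the other two. The peroxidase gene PRX52 did, with 6.41, 6.37 and 7.77 in WT and 6.91, 6.26 and 5.995 in ara6-1. TBL26, of a family that acetylates wall polysaccharides, had 7.69, 7.58 and 8.92 in WT and 8.25, 8.36 and 8.29 in ara6-1, so the mutant arrays were level. UGT71B5, a glycosyltransferase gene, was level as well, with 4.74, 4.95 and 5.51 in WT and 5.19, 5.33 and 5.21 in ara6-1.

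A pair of anthocyanin genes and a sugar transporter gene were high in both WT replicate 3 and ara6-1 replicate 1. DFR, which encodes an enzyme committed to anthocyanin synthesis, had 9.43, 9.48 and 10.17 in WT and 9.95, 8.76 and 9.17 in ara6-1. AT5MAT, whose enzyme adds malonate to anthocyanins, had 5.54, 5.80 and 6.49 in WT and 6.31, 5.21 and 5.66 in ara6-1. Of the 5 eligible genes of the anthocyanin and flavonoid list, these 2 were among the 150. UF3GT, an anthocyanin gene outside the 150, had 0.21 for WT replicate 3 and 0.63 for ara6-1 replicate 1 against their group's other two arrays. The symbol match also took the gene that RefSeq calls CHI at AT2G43570, with 0.09 and -0.05, and UGT80B1, with -0.07 and -0.38.

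SWEET1, a glucose transporter gene, stood at 5.52, 5.86 and 6.60 in WT and at 6.22, 5.54 and 5.75 in ara6-1. It was the 1 member among 5 eligible genes of the list of sugar starvation and darkness, which includes SWEET genes. Outside the 150, SWEET16 had 0.62 in WT replicate 3 and 0.31 in ara6-1 replicate 1 against the other two arrays, and SWEET17 had 0.01 and -0.46. Over the 5 genes the medians were 0.21 and 0.31, and ara6-1 replicate 1 was lower in 1. Of the 9 transcripts with a gene name that were high in WT replicate 3, ara6-1 replicate 1 deviated by at least 0.5 in the same direction in 6, namely PDF1.2, PRX52, DFR, AT5MAT, SWEET1 and BGLU22.

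**Figure D2:**
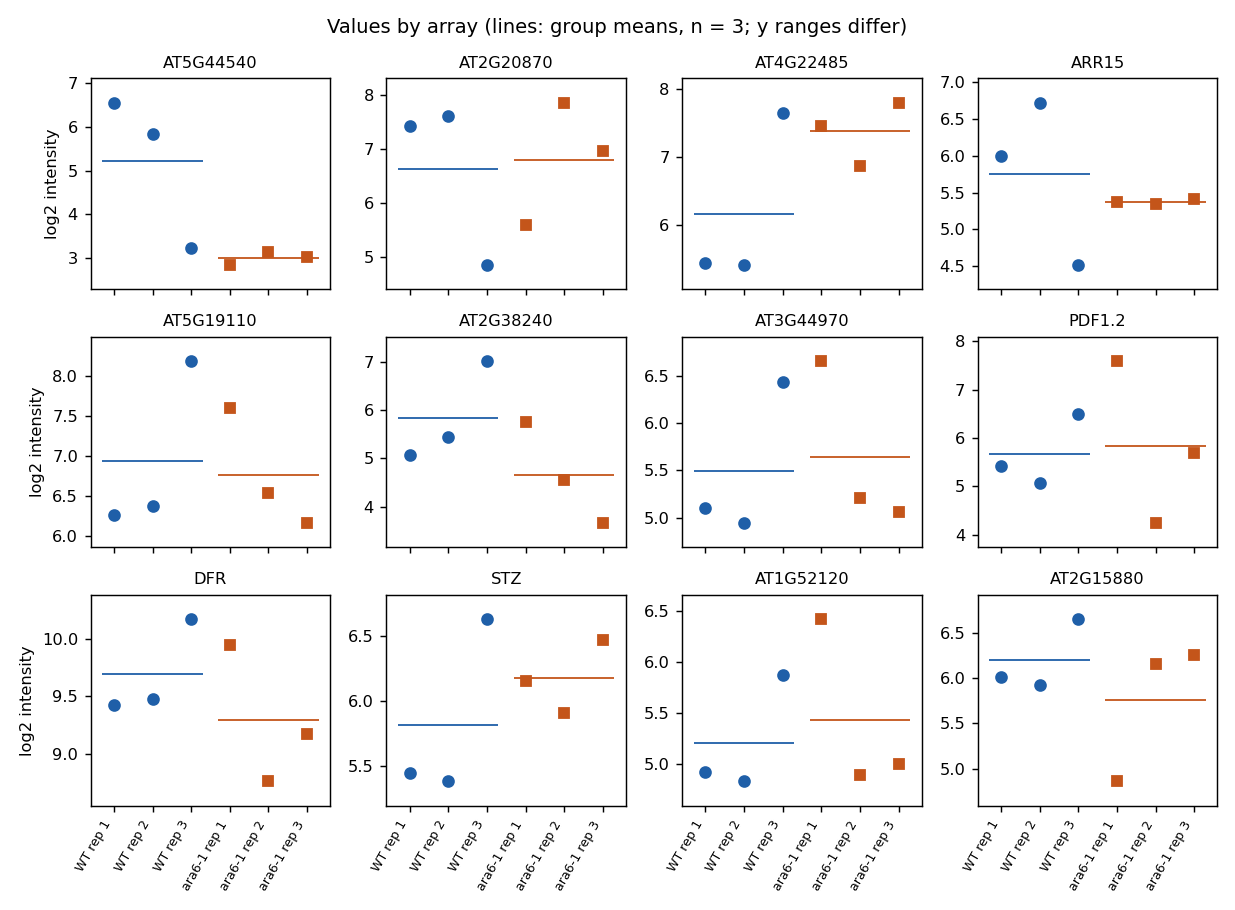
Log2 intensity of 12 of the 150 genes in each of 6 arrays, WT as circles and ara6-1 as squares, with lines at the group means (n = 3 each) and a y range of its own in each panel. AT2G20870, AT5G19110, AT2G38240, AT3G44970, PDF1.2, DFR and AT1G52120 deviated the same way in WT replicate 3 and ara6-1 replicate 1, ARR15 and STZ did not, and AT2G15880 went the opposite way.

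Root genes were found on both sides of the WT replicate 3 deviation. Of 20 root markers in the list, 16 were named on the array and 14 were eligible, and 5 of the 14 (35.7%) were among the 150, beside 2.23% of all eligible genes. No test was made of this share. AT3G01190 stood at 7.27, 7.32 and 6.44 in WT and at 6.93, 7.20 and 7.09 in ara6-1. AT2G18980 stood at 7.20, 7.35 and 6.54 in WT and at 7.15, 7.59 and 7.61 in ara6-1. AT5G66390, the peroxidase gene PRX72, stood at 6.69, 6.85 and 6.09 in WT and at 6.32, 6.81 and 6.56 in ara6-1. These 3 were low in WT replicate 3.

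The other two root markers were high there. BGLU22, of the beta-glucosidases that roots store for defence, stood at 7.75, 7.81 and 8.56 in WT and at 8.44, 7.67 and 7.83 in ara6-1. AT1G49570 stood at 5.25, 5.73 and 6.22 in WT and at 6.10, 5.79 and 5.10 in ara6-1. All 5 deviated the same way in ara6-1 replicate 1, by 0.22 to 0.69. The whole list did not: of its 14 eligible genes, WT replicate 3 was lower than the other two in 10, with a median of -0.18, and ara6-1 replicate 1 in 4, with a median of 0.23. Over all eligible genes the 2 arrays were lower in 3374 and 3330 of 6737. AT3G49960, outside the 150, had -0.26 in the first array and 0.45 in the second. Summed over the 16 named markers, linear intensity came to 6338, 6552 and 6389 in WT and to 7005, 6886 and 6858 in ara6-1. The sum of WT replicate 3 thus lay between those of the other WT arrays. Most of each sum came from markers outside the 14 eligible genes. It thus follows the brightest markers and does not weigh the 16 evenly. The part of root content in the members' values was not tested. For comparison, 5 of 18 leaf photosynthesis markers were named, and 0 of the 2 eligible ones were among the 150. The 5 named markers summed to 9698, 9903 and 9693 in WT and 10320, 10475 and 10500 in ara6-1. Those sums too came mostly from markers that were not eligible. Seed storage markers (3 of 14 named) had sums of 22.6 to 28 over all 6 arrays, near the low end of intensity, and of the 10 floral organ markers 0 were named.

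Other lists contributed few or no members. Of 31 lists, 9 had at least 1 member, and 16 of the 150 genes were in any list. The peroxidase list had 2 of 4 eligible genes, PRX52 and AT5G66390. It can miss peroxidase genes named only by their locus, root markers included, so it does not count all peroxidase genes among the 150. The defence peptide list had 2 of 10, PDF1.2 and PDF2.5, and was matched by symbol, which also took the peptide deformylase genes PDF1A and PDF1B. The touch and calcium list had its 1 eligible gene, STZ, and the glycosyltransferase list had 1 of 18, UGT71B5. The lists of cold and drought response (6 eligible genes), WRKY factors (5), nitrate response (8), auxin response (5), glutathione S-transferases (5) and cytochrome P450s (10) had 0 members. Matching by symbol can take genes of other function and miss genes named only by locus. A list with 0 members thus does not mean that its family was absent from the 150. All 5 WRKY genes lay higher in WT replicate 3 than the mean of the other two, with a median of 0.32. Of all eligible genes, 50.1% were lower in WT replicate 3. Of the same 5 WRKY genes, 3 were lower in ara6-1 replicate 1 than the mean of replicates 2 and 3, with a median of -0.13. Of all 6737 eligible genes, 3330 were.

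The ara6-1 arrays, whose spread the choice did not use, also spread more in these genes. The median SD over the 3 ara6-1 arrays was 0.26 for the 150 genes and 0.11 for all eligible genes. In 35 of the 150 (23.3%) the ara6-1 SD reached the lowest WT SD of a member, as it did in 1.86% of all eligible genes. The 150 genes were dimmer than the eligible genes, with a median WT mean of 5.85 against 6.57. Dim probe sets spread more, so the comparison was also made within ranges of intensity. At a WT mean of 5 to 6 the median ara6-1 SD was 0.24 in 83 members and 0.13 in 2107 other eligible genes, at 6 to 7 it was 0.26 in 42 and 0.11 in 1980, and at 7 or more it was 0.29 in 25 and 0.09 in 2500.

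The wider ara6-1 spread did not rest on replicate 1 alone. Between ara6-1 replicates 2 and 3 the median gap was 0.22 in the 150 genes and 0.10 in all eligible genes. Without replicate 1 the median SD of the members fell to 0.16, against 0.07 for the eligible genes.

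**Figure D3:**
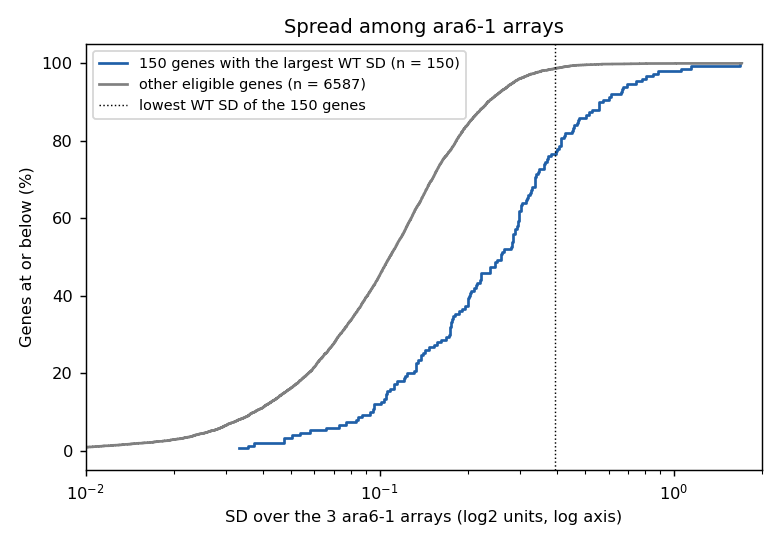
Cumulative share of genes (y, percent) by SD over the 3 ara6-1 arrays (x, log2 units on a log axis) for the 150 genes and for 6587 other eligible genes. The curve of the 150 genes lies to the right, with a median of 0.26, and 35 of them reach the dotted line at the lowest WT SD of a member.

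Whether ara6-1 replicate 1 shared the deviation was read as its difference from the mean of ara6-1 replicates 2 and 3, with the sign of the farthest WT array. It had the same sign in 105 of the 150 genes (70%), against 51.8% of all eligible genes. It reached 0.5 in the same direction in 38 genes, where the share of eligible genes was 2.24%, and 0.5 in the opposite direction in 10, where it was 1.59%. In the remaining 102 genes it stayed below 0.5 either way. One array against the other two allows no test, so these counts describe these arrays.

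The sharing went with WT replicate 3. Of the 123 genes it drove, 95 (77.2%) had the same sign in ara6-1 replicate 1, compared with 58.4% of the 3031 eligible genes that WT replicate 3 drove. Shares of eligible genes driven by the same array and direction are given in brackets. Genes that were high in WT replicate 3 had the same sign in 41 of 52 (58.4%) and reached 0.5 in 21 (4.26%). Genes that were low there had it in 54 of 71 (58.3%) and reached 0.5 in 16 (3.54%). The median difference in ara6-1 replicate 1 was 0.39 for the high genes and 0.28 for the low ones, beside median WT differences of 0.87 and 0.79. Among the 17 genes driven by WT replicate 2 the sign was the same in 8, beside 48.6% of the eligible genes it drove. Among the 10 driven by WT replicate 1 it was the same in 2, beside 44.3%. Nothing is read from these 2 small groups. Across the 123 genes the 2 differences correlated at r = 0.63 (Spearman's rho = 0.60), a value over genes that share their arrays and are not independent replicates. Over all 6737 eligible genes r was 0.26 and rho 0.18.

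ara6-1 replicates 2 and 3 showed the converse. Taken in place of replicate 1, they had the same sign in 50 and 51 of the 150 genes, against 49.5% and 48.2% of eligible genes, and each reached 0.5 in the same direction in 5. The share of eligible genes at 0.5 was 0.505% for replicate 2 and 0.727% for replicate 3. Deviations within a group of 3 sum to 0, so these low counts are tied to the high one of replicate 1. The share of same-sign genes for replicate 1 was 74% in the 50 genes with the largest WT SD and 68% in the other 100 members. It was 60.7% in the next 150 eligible genes, 60% in the 300 after those and 50.2% in the 4337 with the smallest WT SD.

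**Figure D4:**
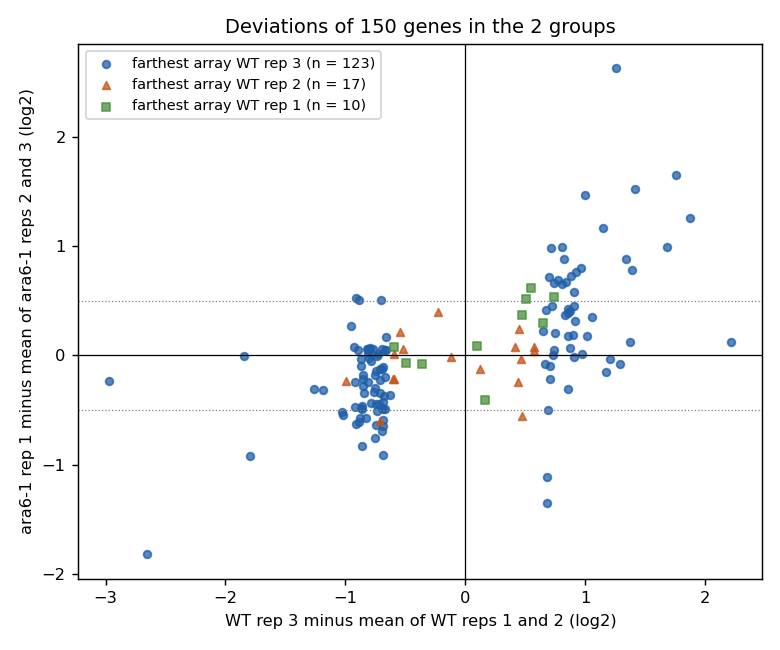
WT replicate 3 minus the mean of WT replicates 1 and 2 (x, log2) against ara6-1 replicate 1 minus the mean of ara6-1 replicates 2 and 3 (y, log2) for 150 genes, with colour and shape for the WT array farthest from the WT mean and dotted lines at ±0.5. Of the 123 genes driven by WT replicate 3, 95 lie in the quadrants where both differences have the same sign, and the highest point is PDF1.2 at 2.62.

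**Figure D5:**
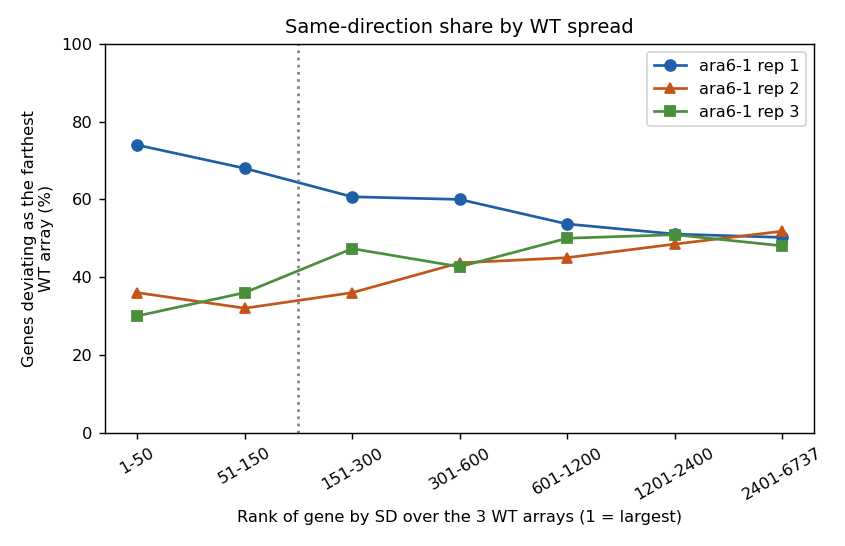
Percent of eligible genes in which an ara6-1 array deviated in the direction of the farthest WT array (y), by rank of WT SD (x), for each ara6-1 replicate. The line of replicate 1 falls from 74% to 50.2%, those of replicates 2 and 3 rise towards it, and the dotted line marks the border of the 150 genes.

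A few members went firmly the other way. AT2G15880 stood at 6.01, 5.93 and 6.65 in WT and at 4.86, 6.16 and 6.25 in ara6-1, so WT replicate 3 was the highest of the 6 arrays and ara6-1 replicate 1 the lowest. AT5G59670 stood at 6.48, 6.08 and 6.97 in WT and at 6.18, 7.10 and 7.49 in ara6-1. The neighbouring genes AT1G52060 and AT1G52070 were low in WT replicate 3 and high in ara6-1 replicate 1, by 0.51 and 0.52 against the mean of replicates 2 and 3.

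Genes driven by WT replicates 1 and 2 deviated by at most 0.91 and 1.35 (log2). AT2G46290 was high in WT replicate 2, with 4.72, 6.12 and 4.82 in WT and 5.16, 5.64 and 5.10 in ara6-1. AT3G15420 had 5.0045, 5.75 and 4.38 in WT and 4.90, 5.33 and 4.94 in ara6-1. In both, the highest mutant array was replicate 2. AT1G51840, AT3G16740 and AT4G18630 were high in WT replicate 2 by 0.82, 0.83 and 0.79, and AT5G04238, AT1G53970, AT1G28570 and AT2G39420 were low there by 0.87, 0.80, 0.80 and 0.69 in size. OBE1, a PHD finger gene of meristem formation, was the 1 member with a gene name in these groups and was low in WT replicate 2, with 5.68, 5.02 and 5.80 in WT and 5.79, 5.44 and 5.66 in ara6-1.

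WT replicate 1 drove AT1G77200 downwards most, with 5.02, 6.11 and 5.73 in WT and 5.42, 6.01 and 5.65 in ara6-1. AT2G25735, AT1G21326, AT1G25480 and AT1G49200 were also low in WT replicate 1, and AT5G44320, AT4G01895 and AT2G32150 were high there. AT5G44320 had 5.59, 4.91 and 4.75 in WT, while its ara6-1 values of 4.89, 4.94 and 4.98 were nearly level. AT2G25735 and AT1G10140 were high in ara6-1 replicate 1 by 0.53 and 0.62, opposite to the low WT replicate 1. In both, WT replicate 3 was the highest WT array. With WT replicate 1 the lowest, either replicate 2 or 3 had to be the highest, so nothing is read from this.

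Some members lay near each other in the genome. Within a window of 10 annotated genes of TAIR10.1 there were 13907 pairs of eligible genes, and in 17 of them (0.122%) both were among the 150. Those pairs involved 24 of the 149 members placed on the annotation, and in 10 of the 17 both genes had the same farthest array and direction. WT replicate 3 drove 82% of the members, so many pairs of members share it wherever they lie. No share was computed for members drawn without regard to position, so nothing is read from these counts. The largest group was on chromosome 4, with AT4G22460, AT4G22470, AT4G22485, AT4G22520 and AT4G22610. The last 4 were high in WT replicate 3 and the first was low.

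Within that group the mutant arrays varied by gene. AT4G22470 had 7.01, 6.92 and 8.31 in WT and 8.06, 7.61 and 6.76 in ara6-1. AT4G22520 had 6.62, 6.79 and 7.85 in WT and 7.75, 6.15 and 7.03 in ara6-1. ara6-1 replicate 1 was thus the highest mutant array in both, while in AT4G22485 it was between the other two. AT5G19100 and AT5G19110, 2 genes apart, were both high in WT replicate 3. Whether neighbouring genes share probe sequence was not tested. Members were also shorter, with a median gene length of 1897 bp against 2509 bp for eligible genes.

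The comparison of ara6-1 with WT asked how loss of ARA6 changes transcript levels. With limma and Benjamini-Hochberg adjustment over 28501 probe sets, 0 of the 150 genes reached an adjusted p under 0.05, whereas 0.0105% of all probe sets did. At an unadjusted p under 0.05 there were 7 of the 150 in limma, 3 higher and 4 lower in ara6-1, and 9.01% of all probe sets. The choice by WT spread raises the error of these genes in the same fit, so nothing is read from the low count. The unmoderated test also called 0 of the 150, with 1 at an unadjusted p under 0.05.

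The groups did not overlap in 5 of the 150 genes, against 19.7% of eligible genes. They were higher in ara6-1 in 2 (10.9% of eligible genes) and lower in 3 (8.79%). The choice by WT spread makes such genes rarer too. AT3G61030, low in WT replicate 2 among the WT arrays, had 5.51, 4.33 and 5.39 in WT and 2.17, 2.38 and 2.04 in ara6-1, near the low end of intensity. The change in ara6-1 was -2.88 (log2, SE 0.30) and the adjusted p from limma was 0.119. In limma the adjusted p was 0.00655 when the prior variance was tied to intensity, a setting that called 0.0561% of all probe sets. Without WT replicate 2 it was 0.00180, but that array was the one farthest from the WT mean in the values that chose the gene, so leaving it out lowers the error by construction and supports nothing. AT5G44540, given above, had only 7.2 to 9.4 in linear intensity in WT replicate 3 and the ara6-1 arrays, near the low end, so its size is uncertain. It changed by -2.20 (log2, SE 0.75), with an adjusted p from limma of 0.541. Without WT replicate 3, the array that drove it, the change was -3.19 and the adjusted p from limma 0.04999. The choice rested on that array, so this again supports nothing.

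The other 3 differed by less, and by less still without the WT array farthest from the WT mean. AT4G01895 had 6.39, 5.70 and 5.68 in WT and 5.39, 5.38 and 5.55 in ara6-1, a change of -0.49 on the log2 scale (adjusted p from limma 0.552), and -0.25 without WT replicate 1. AT3G56060 had 6.39, 6.62 and 5.81 in WT and 6.77, 6.95 and 6.83 in ara6-1, with 0.58 (adjusted p = 0.541). AT5G41900 had 6.09, 6.17 and 5.42 in WT and 6.29, 6.57 and 6.24 in ara6-1, with 0.48 (adjusted p = 0.558). In the last 2 genes WT replicate 3 was the lowest array, and without it the changes were 0.35 and 0.24.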

How the data were processed

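Arrays of 3 WT and 3 ara6-1 samples were compared, each column matched to its sample by label. The deposited values were linear intensity for each probe set on each array. The submitters' processing notes name Affymetrix Expression Console, version 1.3. Summarization, genome build and annotation are not given in the sources used here. Array medians were nearly equal, so values were not normalized again. Of 38408 rows, the 28501 written to 1 decimal or fewer were used, and 9907 with more decimals were left out. Of the 28501, 16704 named 1 gene, 744 several and 11053 were not listed in the probe table. Names were updated through RefSeq's TAIR10.1 annotation, where 149 of the 150 members were found, 24 of them with a symbol other than the locus.

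Values were turned into log2 with a floor of 1 that touched none. The brightest probe set by mean over 6 arrays stood for a gene. The 2 genotypes were fitted in limma (version 3.58.1, R 4.3.3) by lmFit and eBayes, two-sided, with p-values adjusted over 28501 probe sets. Scripts were tested on simulated data. Members and lists were chosen with earlier results of these data known. Genes named followed a rule: the 5 with the largest WT SD for each WT array and direction, the 6 with the largest shared and opposite deviation of ara6-1 replicate 1, those with separate groups, list members and the border of the list. Further genes with a name or a neighbour among the members were added after their values were seen. Gene lists (31) were matched by symbol pattern or locus. Promoter motifs were not analysed here. Alternatives changed normalization, prior variance, weights, rows tested, the replicate block, the choice of members and the arrays left out.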

Additional observations from a re-analysis of the deposited data

How the results depend on the processing

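Over all results, single genes included, 238 alternative values stayed within the limits set for them, 14 moved and 3 gained a call. The limits differed by result. Counts, shares and medians had to stay within a set ratio. Single-gene changes between the groups only had to keep their sign and their side of the limit for a call in limma, so their size could shift. AT4G01895 counted as kept at -0.49 in the main fit and -0.25 without WT replicate 1. The 3 probe sets called in limma over the whole array rose to 16 when the prior variance was tied to intensity, 9 without rows under a mean log2 intensity of 5, and 0 in the unmoderated test, chosen after seeing the data, and lay between 2 and 4 without single arrays. Of the 150 genes, 0 were called, against 1 when the prior variance was tied to intensity, and between 0 and 1 without single arrays. With the replicate block 2 probe sets and 0 members were called, and 10 members had an unadjusted p under 0.05. The labels do not say whether same-numbered arrays were paired. Deviations from the group means in same-numbered arrays correlated at -0.196, 0.174 and -0.150. Deviations within a group sum to 0, so these values are tied to each other and cannot settle the pairing. Without WT replicate 3, 37 members had an unadjusted p under 0.05 against 7 with it (2852 and 2569 of all 28501 probe sets). That array drove 123 of the genes chosen for WT spread, so leaving it out lowers their error by construction. Whether this accounts for the whole rise was not tested.

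Chosen again at a WT mean of at least 6 or at least 4, 67 of the 150 genes remained in the list in each case. The share of members whose ara6-1 replicate 1 shared the deviation was 25.3%, and 46% at a limit of 0.25, 4.67% at a limit of 1, and 14% against the median of the 6 arrays. It was 3.33% for ara6-1 replicate 2 and 3.33% for replicate 3 in its place. The median ara6-1 SD of members was 0.156 to 0.240 without single ara6-1 arrays. Another limit, minimum or reference array changes these values by construction; otherwise the cause was not tested. With 3 arrays a group, single-array deviations have no error of their own.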

Other observations

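Probe sets without a gene in the probe table gave a second view of the same arrays. Of 5977 such probe sets in the same range of WT mean, 219 (3.66%) had a WT SD at least as large as the lowest of the 150 genes. WT replicate 3 was farthest in 177 of the 219, high in 93 and low in 84. ara6-1 replicate 1 had the same sign in 171 (78.1%), reached 0.5 in the same direction in 72 (32.9%) and in the opposite direction in 13. Their median SD over the ara6-1 arrays was 0.28. The 219 were chosen by WT SD and the same shares over all 5977 were not computed, so these counts are a description. None of the 150 genes had values identical to another row. AT3G47965 was the 1 member with a further probe set, which had a log2 intensity of 4.70, 4.87 and 4.85 in WT and did not show the low value of WT replicate 3.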
